A study of Mus musculus with 62 samples.

Results

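Astrocytes, the supporting glial cells of the brain, were examined through 10 genes of their resting, homeostatic work: Slc1a2, Slc1a3, Glul, Aldh1l1, Aqp4, Kcnj10, Gja1, Gjb6, S100b and Sox9. The genes were taken by name from the gene abundance tables of the long-RNA libraries, and each of the 10 names matched 1 of the 53975 gene identifiers. The study compared hippocampi of mice that develop amyloid pathology with those of wild-type mice, and also treated HT-22 cells, a mouse hippocampal neuronal line, with amyloid peptide. The APP groups were APP NL-G-F mice, which carry a humanised App gene with familial Alzheimer's disease mutations at the mouse locus, at 3 months (3 mice), 6 months (3 mice) and 12 months (3 mice). The WT groups were C57BL/6J mice at 3 months (2 mice), 6 months (3 mice) and 12 months (3 mice). Left and right hippocampus of a mouse were pooled into 1 long-RNA library, which gave 17 libraries in 6 groups. The design text places 3 months before appreciable plaque load, 6 months at the onset of plaques and symptoms, and 12 months at the terminal stage.

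Astrocytes take up the glutamate and potassium that active neurons release, turn the glutamate into glutamine, and pass water and ions to blood vessels through their endfeet. Neighbouring astrocytes share these loads through gap junctions. Around amyloid plaques astrocytes become reactive, a state marked by more intermediate filament protein and by acute-phase and complement proteins, and loss of homeostatic functions is often discussed beside it.

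Levels are TPM (a length-corrected share of the transcripts of a library) divided by a median-of-ratios factor for each library, called scaled TPM here. The factors ran from 0.69 to 1.46, with 1.12 to 1.46 in APP and 0.69 to 0.84 in WT at 6 months, so the scale matters most at that age. Differences are log2 changes of scaled TPM + 1, tested with limma over 17840 genes and called at a Benjamini-Hochberg adjusted p below 0.05. In whole hippocampus, fewer astrocytes and less RNA per astrocyte cannot be told apart.

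Some libraries differed in ways that touch the comparisons. In APP replicate 1 of 3 months the summed scaled TPM of 8 oligodendrocyte markers was 2790 and that of 7 choroid plexus markers 2439, while the other APP libraries of that age had 1650 and 2319 for oligodendrocytes and 627 and 581 for choroid plexus. The WT libraries of 3 months had oligodendrocyte sums of 1643 and 1543. Xist, the X-inactivation RNA of female cells, was at 70.6 to 137 scaled TPM in the 9 APP libraries and at 90.7 and 92.2 in the 2 WT libraries of 3 months. The 6 older WT libraries had Xist at 0.265 to 0.524 and the Y-linked Ddx3y at 18.8 to 28.2 scaled TPM. Genotype and sex-linked expression therefore cannot be told apart at 6 and 12 months, nor can age and sex-linked expression in WT mice between 3 and 12 months. In the comparisons at 3 months, within APP mice, and of WT mice at 12 against 6 months both sides had the same sex-linked pattern, but within APP mice Xist rose from 3 to 12 months by 0.47 on the log2 scale (limma adjusted p 0.0241), with no overlap of the groups.

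Other marker sums moved with groups too. APP replicate 2 of 6 months had a choroid plexus sum of 39.2 scaled TPM, beside 914 and 576 in the other APP libraries of that age, and a reactive astrocyte sum of 485, beside 235 and 207. Its microglia sum was 264, beside 133 and 124. At 6 months 0 of the 10 genes were called with that library and 0 without it. Of all tested genes 297 of 17840 were called with it and 76 of 17743 without it (limma). At these shares the counts of 0 do not show whether the library matters. The sum of 5 blood genes was 149 to 225 in APP and 73.7 to 88.2 in WT at 3 months, and 90.7 to 137 in APP and 175 to 227 in WT at 6 months, so blood RNA lay on opposite sides at these ages. At 12 months the choroid plexus sum was 1446 to 1668 in APP and 425 to 1317 in WT, and 0 of its 7 genes were called (limma). The part of these shifts in the values of the 10 genes was not tested.

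All 10 genes were well above the filter of a mean of 1 TPM in hippocampus. The glutamate transporter Slc1a2 averaged 598 ± 86.2 scaled TPM (SD, n = 17) and glutamine synthetase Glul 596 ± 33.6 (SD, n = 17). Slc1a2 was above Glul in 11 of 17 libraries, so these neighbours in the order did not separate. Below them followed Slc1a3 at 132, Gja1 at 103, S100b at 49.1, Aqp4 at 47.2, Kcnj10 at 42.0, Gjb6 at 28.8, Aldh1l1 at 17.02 and Sox9 at 15.4 scaled TPM. Glul was higher than Slc1a3 and Gja1 higher than S100b in every library without overlap of their ranges. The ranges of the other neighbours overlapped. The coefficient of variation over the 17 libraries was lowest for Glul at 5.64% and highest for Kcnj10 at 24.9%. Its median over the 10 genes was 16.0%, beside 14.7% for the 7836 tested genes with a mean of at least 10 TPM.

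**Figure D1:**
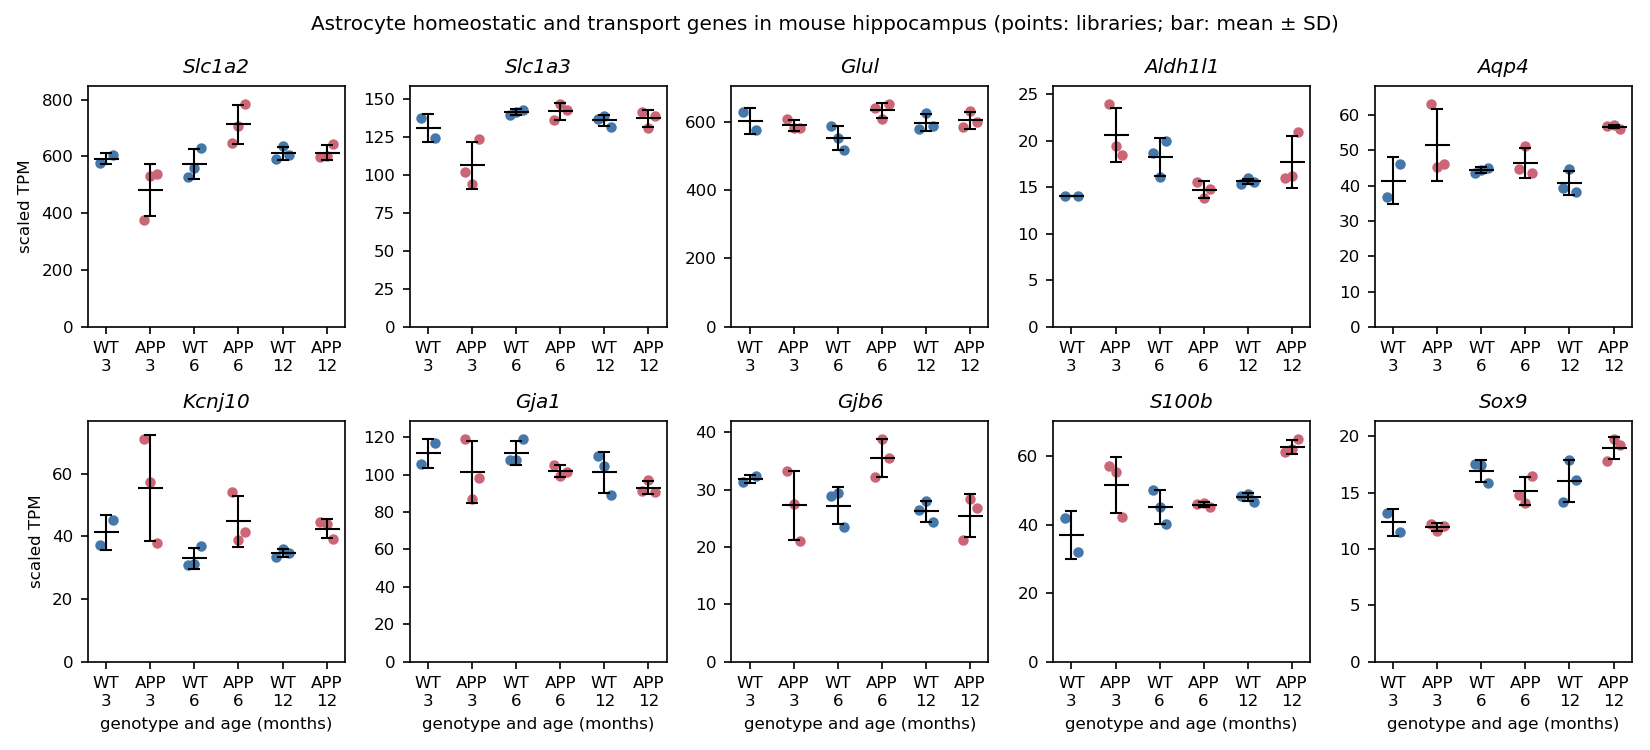
Scaled TPM (vertical axis, from 0) of each of the 10 genes in the 17 hippocampus libraries, by genotype and age in months; points are libraries and bars the mean ± SD of the group. Sox9 sits at 11.6 to 12.2 in APP at 3 months and at 17.9 to 19.8 in APP at 12 months, while Glul stays between 517 and 652 throughout.

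Slc1a2 encodes GLT-1, the transporter that clears most synaptic glutamate in the forebrain (ENSMUSG00000005089, chromosome 2, 102658659 to 102790784, GRCm38). APP mice had 375, 530.45 and 538 scaled TPM at 3 months, 647, 708 and 785 at 6 months, and 597, 601 and 643 at 12 months. WT mice had 578 and 607 at 3 months, 528, 561 and 631 at 6 months, and 591, 635 and 606 at 12 months. APP libraries lay wholly below WT at 3 months, wholly above at 6 months, and among the WT libraries at 12 months. The log2 difference between APP and WT was -0.32 (SE 0.15, limma adjusted p 0.384) at 3 months, 0.31 (SE 0.14, limma adjusted p 0.252) at 6 months and 0.01 (SE 0.14, limma adjusted p 0.999) at 12 months, so none was called. Without APP replicate 1 of 3 months, the library with the lowest Slc1a2, the 3-month difference was -0.15 (limma adjusted p 0.781). The 95% interval at 12 months ran from -0.28 to 0.30.

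Slc1a3 encodes GLAST, the second astrocytic glutamate transporter (ENSMUSG00000005360, chromosome 15, 8634124 to 8710764). APP mice had 102, 93.7 and 124 scaled TPM at 3 months, 136, 147 and 143 at 6 months, and 142, 131 and 139 at 12 months. The 8 WT libraries ran from 124.5 to 143. Only the 3-month APP libraries were low, and the highest of them came within 1 scaled TPM of the lower WT library of that age. Slc1a3 in APP was 0.37 higher at 12 than at 3 months on the log2 scale (SE 0.10), with a limma adjusted p of 0.0541, and was not called. Without APP replicate 3 of 3 months the value was 0.49 and the limma adjusted p 0.0102, and without APP replicate 2 of 3 months they were 0.29 and 0.161. The ratio of Slc1a2 to Slc1a3 within a library does not move with the library factor, and at 6 months its mean was 4.06 ± 0.32 (SD, n = 3) in WT libraries, beside 5.03 ± 0.41 (SD, n = 3) for APP. The log2 difference in that ratio between APP and WT was -0.01 at 3 months, 0.31 at 6 months and -0.01 at 12 months, with a mean over the 3 ages of 0.10 (exact permutation test within ages, two-sided, p 0.298, adjusted p 0.446 over 3 ratios).

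Glul encodes glutamine synthetase, which turns the captured glutamate into glutamine (ENSMUSG00000026473, chromosome 1, 153899944 to 153909723). It was the steadiest of the 10, with group means between 552 ± 35.02 (SD, n = 3) in WT at 6 months and 633 ± 22.6 (SD, n = 3) in APP at 6 months. The APP libraries of 6 months, at 639, 608 and 652 scaled TPM, lay above the WT libraries of that age at 587, 552 and 517, and at 3 and 12 months the groups overlapped. The 6-month log2 difference of 0.20 (SE 0.09) had a limma adjusted p of 0.297. A microRNA gene, Mir8114, overlaps Glul on the same strand with a mean of 300.04 TPM, and the part of Glul's reads assigned to it is not known.

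Aldh1l1 encodes a folate enzyme used as a broad astrocyte marker (ENSMUSG00000030088, chromosome 6, 90486427 to 90600203). APP mice had 24.0, 19.5 and 18.5 scaled TPM at 3 months, 15.6, 13.9 and 14.8 at 6 months, and 16.0, 16.2 and 20.9 at 12 months. WT mice had 14.1 and 14.1, then 18.7, 16.1 and 20.0, then 15.4, 16.0 and 15.6. APP lay above WT at 3 months and below WT at 6 months without overlap. The log2 differences were 0.51 (SE 0.13, limma adjusted p 0.118) and -0.28 (SE 0.12, limma adjusted p 0.245), neither called. The difference between these differences, a comparison added after the data were seen, was -0.80 (SE 0.18, limma adjusted p 0.0412), and Aldh1l1 was the only one of the 10 called in it, beside 1.61% of all tested genes in either direction and 0.667% lower. In that comparison 4 of the 10 had an unadjusted p below 0.05, beside 18.7% of all tested genes. Of the 17 fits that left out 1 library the call was kept in 5, those without APP replicate 2 or 3 of 3 months, APP replicate 1 of 6 months, APP replicate 3 of 12 months or WT replicate 2 of 6 months, and lost in the other 12 with limma adjusted p from 0.0547 to 0.116. On TPM as deposited the difference was 0.062, without a call. This comparison also spans the change in sex-linked RNA between WT ages. In it 2 of 5 blood genes were called lower and 0 higher, with a list median of -1.73, and the medians of the oligodendrocyte and choroid plexus lists were -0.48 and -0.75 with no gene called. The part of these cells in the Aldh1l1 value was not tested. At 12 months the Aldh1l1 difference was 0.16, and without APP replicate 3 of that age it was 0.04.

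Aqp4 encodes the water channel of astrocyte endfeet (ENSMUSG00000024411, chromosome 18, 15389394 to 15403684). At 12 months APP mice had 56.9, 57.3 and 56.2 scaled TPM and WT mice 39.2, 44.8 and 38.3. The APP libraries of 12 months were close together and all above WT, while at 3 months APP (63.2, 45.3 and 46.2) and WT (36.7 and 46.1) overlapped, as did APP (44.7, 51.3 and 43.5) and WT (43.5, 44.6 and 45.1) at 6 months. The log2 difference at 12 months was 0.47 (SE 0.13, 95% interval 0.20 to 0.74, limma adjusted p 0.184) and was not called. Without APP replicate 1 of 3 months, which is not one of the libraries compared but shares the estimate of spread, the limma adjusted p was 0.0494. No other fit that left out 1 library called it, and without WT replicate 1 of 12 months the limma adjusted p was 0.527.

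Kcnj10 encodes Kir4.1, the inward rectifier through which astrocytes take up potassium (ENSMUSG00000044708, chromosome 1, 172341210 to 172374085). APP mice had 71.2, 57.4 and 37.8 scaled TPM at 3 months, 54.2, 39.0 and 41.4 at 6 months, and 44.6, 43.9 and 39.2 at 12 months. WT mice had 37.4 and 45.2, then 30.8, 31.2 and 37.0, then 33.5, 36.1 and 34.8. APP was above WT without overlap at 6 and 12 months, by 0.42 (SE 0.18, limma adjusted p 0.248) and 0.28 (SE 0.18, limma adjusted p 0.861) on the log2 scale. From 3 to 12 months in APP its log2 change was -0.33 (limma adjusted p 0.398), and it moved with single libraries of 3 months. It was -0.13 (limma adjusted p 0.812) without APP replicate 1 and -0.58 (limma adjusted p 0.0426) without APP replicate 3. The widest spread within a group was that of APP at 3 months, where the highest Kcnj10 library was the one with the highest oligodendrocyte and choroid plexus sums. The other APP libraries of that age had the opposite order, with 57.4 scaled TPM of Kcnj10 beside an oligodendrocyte sum of 1650 and 37.8 beside 2319. Kir4.1 is also made by oligodendrocytes, and the part of oligodendrocyte RNA in these values was not tested. The log2 ratio of Aqp4 to Kcnj10 differed between APP and WT by -0.08 at 3 months, -0.36 at 6 months and 0.19 at 12 months. The mean over the 3 ages was -0.08 (exact permutation test within ages, two-sided, p 0.495, adjusted p 0.495). That mean averages differences of opposite sign, and the single ages were not tested.

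Gja1 encodes connexin 43 and Gjb6 connexin 30, the gap junction proteins that couple astrocytes (Gja1, ENSMUSG00000050953, chromosome 10, 56377330 to 56402513; Gjb6, ENSMUSG00000040055, chromosome 14, 57123303 to 57133611). Gja1 had the narrowest range of group means after Glul, from 93.0 ± 3.63 (SD, n = 3) in APP at 12 months to 111 ± 6.30 (SD, n = 3) in WT at 6 months. Its log2 differences between APP and WT were -0.15, -0.13 and -0.11 at 3, 6 and 12 months, with limma adjusted p of 0.695, 0.627 and 0.961. Gjb6 in APP was at 33.2, 27.4 and 21.1 scaled TPM at 3 months, at 32.2, 38.9 and 35.5 at 6 months, and at 21.2, 28.3 and 26.8 at 12 months. WT mice had 31.3 and 32.3, then 28.8, 29.4 and 23.5, then 26.4, 28.0 and 24.3. The 6-month APP libraries of Gjb6 stood above WT of that age and above APP of 12 months, by 0.38 (SE 0.15, limma adjusted p 0.215) and 0.47 (SE 0.15, limma adjusted p 0.227) on the log2 scale, and neither difference was called. The log2 ratio of Gja1 to Gjb6 differed between APP and WT by 0.09 at 3 months, -0.49 at 6 months and -0.06 at 12 months, with a mean over the 3 ages of -0.15 that was not called (exact permutation test within ages, two-sided, p 0.198, adjusted p 0.446).

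S100b encodes a calcium-binding protein that astrocytes secrete and that some oligodendrocyte-lineage cells also make (ENSMUSG00000033208, chromosome 10, 76253853 to 76261159). APP mice had 57.2, 55.4 and 42.3 scaled TPM at 3 months, 46.1, 46.3 and 45.2 at 6 months, and 61.1, 62.1 and 65.1 at 12 months. WT mice had 41.8 and 32.0, then 50.3, 45.1 and 40.2, then 48.4, 49.0 and 46.8. APP was above WT without overlap at 3 and 12 months and overlapped WT at 6 months. The log2 difference was 0.47 (SE 0.14, limma adjusted p 0.152) at 3 months and 0.38 (SE 0.12, limma adjusted p 0.385) at 12 months, and between APP at 12 and 6 months it was 0.44 (SE 0.12, limma adjusted p 0.152). The 3-month difference was 0.29 (limma adjusted p 0.660) without WT replicate 2 of 3 months and 0.61 (limma adjusted p 0.0286) without APP replicate 3. In the APP libraries of 3 months the oligodendrocyte sums beside these S100b levels were 2790, 1650 and 2319, so the orders differed, and the part of those cells in the value was not tested. S100b overlaps Dip2a on the opposite strand, at a mean of 21.1 TPM, and no source used here says whether the counting used strand.

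Sox9 encodes a transcription factor that specifies astrocytes and marks their nuclei in the adult brain (ENSMUSG00000000567, chromosome 11, 112782224 to 112787760). APP mice had 12.2, 11.6 and 12.1 scaled TPM at 3 months, 14.8, 14.1 and 16.5 at 6 months, and 17.9, 19.8 and 19.2 at 12 months. The 3 ages of APP did not overlap. Sox9 rose in APP from 3 to 12 months by 0.62 on the log2 scale, 1.54-fold (SE 0.10, 95% interval 0.41 to 0.84, limma adjusted p 0.00456). It was the only one of the 10 called there, beside 3.28% of all tested genes in either direction and 1.92% higher. Without overlap of the groups 4 of the 10 were higher at 12 months (11.3% of all tested genes) and 0 lower (10.7%), and at an unadjusted p below 0.05 there were 4, beside 16.4% of all tested genes. Xist rose in the same comparison, and its part in the Sox9 value was not tested. The Sox9 call was kept in all 17 fits that left out 1 library, with log2 changes of 0.59 to 0.66 and limma adjusted p of at most 0.0274, and was lost on TPM as deposited (0.62, limma adjusted p 0.0652).

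WT mice had 13.2 and 11.5 scaled TPM of Sox9 at 3 months, 17.5, 17.5 and 15.8 at 6 months, and 14.2, 17.9 and 16.1 at 12 months. They were also lower at 3 than at 12 months without overlap, by 0.35 (SE 0.11, limma adjusted p 0.438), in a comparison added after the data were seen. Age and sex-linked expression cannot be told apart between these WT ages, which also limits the comparison of age changes that follows. The Sox9 change in APP minus that in WT was 0.27 (SE 0.15, 95% interval -0.05 to 0.60, limma adjusted p 0.599), so a difference in age change between the genotypes was not shown. Between APP and WT at 12 months Sox9 overlapped in 1 WT library, and the log2 difference was 0.23 (SE 0.10, limma adjusted p 0.656).

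**Figure D2:**
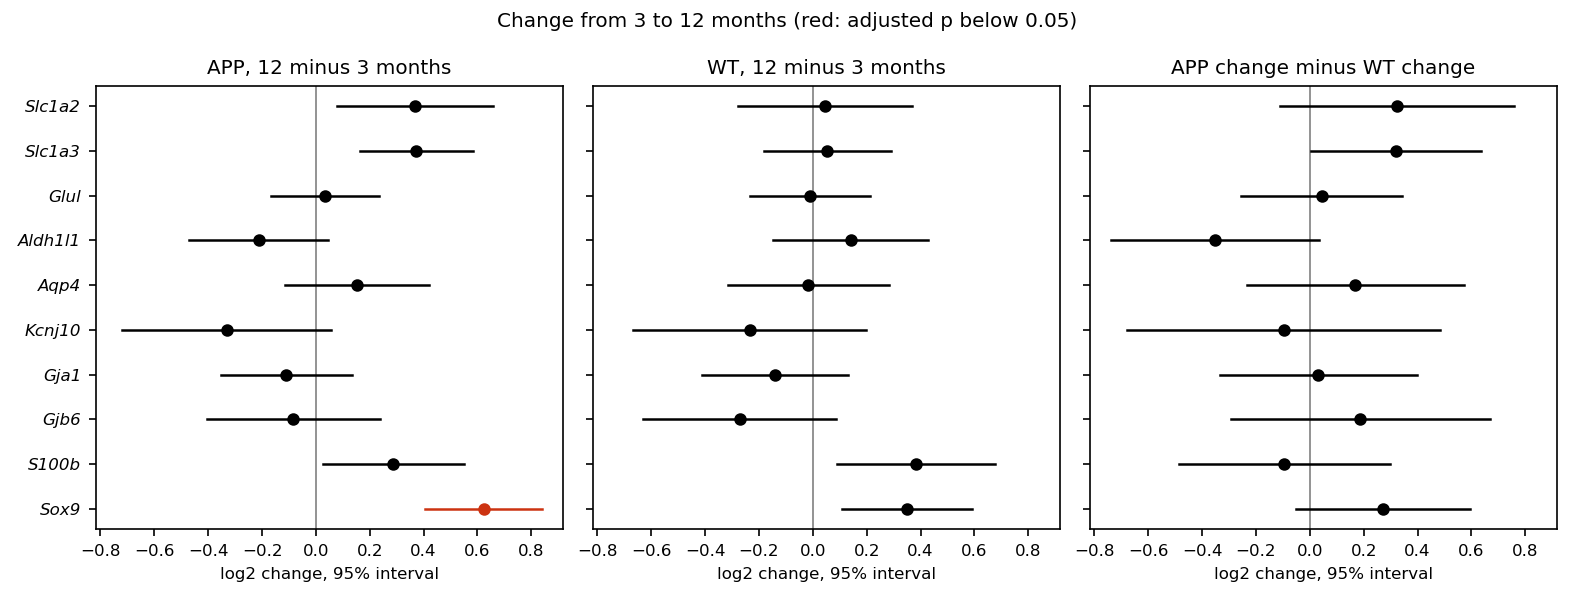
Log2 change with its 95% interval (horizontal axis) of each of the 10 genes from 3 to 12 months in APP, in WT, and APP change minus WT change. Sox9 in APP, at 0.62, is the only point in red, the mark of an adjusted p below 0.05, and its WT change of 0.35 is not called.

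Across the 3 genotype comparisons none of the 10 genes was called. At 3 months 0 of 10 were called beside 0.303% of all tested genes, at 6 months 0 of 10 beside 1.66%, and at 12 months 0 of 10 beside 0.443% (limma). At an unadjusted p below 0.05 there were 4, 4 and 3 of the 10, beside 13.4%, 16.98% and 7.03% of all tested genes. Without overlap of the groups, 2 members were higher and 2 lower in APP at 3 months (13.8% and 13.4% of all tested genes), 4 higher and 2 lower at 6 months (11.1% and 10.1%), and 4 higher and 0 lower at 12 months (8.67% and 6.97%). The 4 at 12 months were Aqp4, S100b, Kcnj10 and Aldh1l1, the last by a gap of less than 1 scaled TPM. On TPM as deposited 9 of the 10 were called at 6 months, beside 10339 of all 17840 tested genes, where that scale moved the median of all genes by 0.60. The median log2 difference of the 10 was -0.04, 0.05 and 0.09 at the 3 ages, beside 0.0035, 0.0011 and -0.0046 over all tested genes. At 12 months the lowest bound of the 10 single-gene 95% intervals was a 0.773-fold level in APP and the highest a 1.67-fold level. Each interval holds for its own gene on scaled TPM, not for the 10 jointly. Genotype and sex-linked expression cannot be told apart at that age. Without APP replicate 3 of 3 months S100b (0.61, limma adjusted p 0.0286) and Slc1a3 (-0.42, limma adjusted p 0.0460) were called at 3 months, while Slc1a3 was at -0.22 (limma adjusted p 0.379) without APP replicate 2 of that age. In the fit without APP replicate 3, 376 of 17913 tested genes were called at 3 months.

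**Figure D3:**
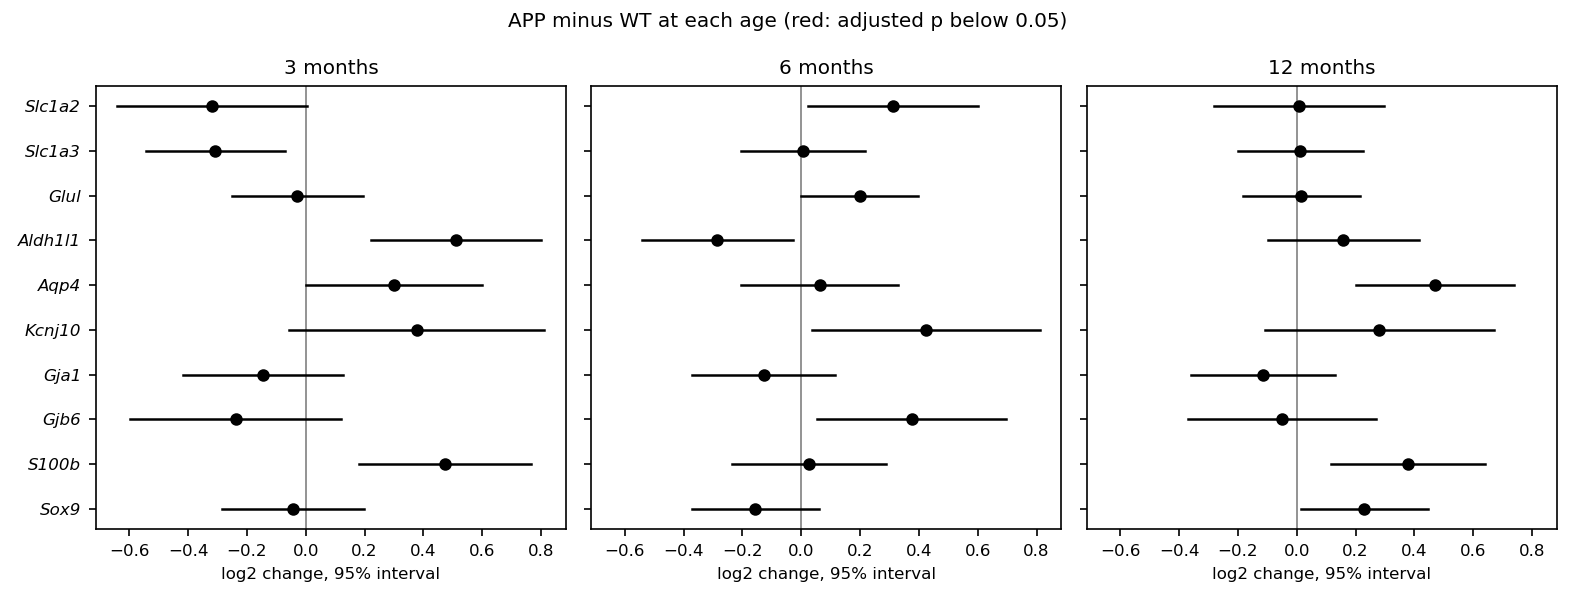
Log2 difference between APP and WT with its 95% interval (horizontal axis) for the 10 genes at 3, 6 and 12 months. No point carries the red of an adjusted p below 0.05, and at 12 months the points lie between -0.11 for Gja1 and 0.47 for Aqp4.

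The other age comparisons gave no call among the 10. Between APP at 12 and 6 months 0 of 10 were called beside 0.538% of all tested genes, with Gjb6 lowest at -0.47 and S100b highest at 0.44. Between WT at 12 and 6 months 0 of 10 were called beside 0%, and the log2 changes lay between -0.21 for Aldh1l1 and 0.11 for Glul. The genotype difference at 12 months minus that at 6 months was called for 0 of 10 beside 0.0224%, and ran from -0.43 for Gjb6 to 0.44 for Aldh1l1. Between WT at 12 and 3 months 0 of 10 were called beside 0.0617%, and for the APP age change minus the WT age change 0 of 10 beside 0.0729%. Without overlap of the groups, 4 were higher and 3 lower between APP at 12 and 6 months (10.7% and 9.34% of all tested genes), 0 higher and 2 lower between WT at 12 and 6 months (6.05% and 6.11%), and 3 higher and 2 lower between WT at 12 and 3 months (13.2% and 13.7%). At an unadjusted p below 0.05 the comparisons of this paragraph held 4, 0, 3, 2 and 1 of the 10 (limma), beside 11.4%, 6.83%, 10.2%, 8.27% and 10.1% of all tested genes.

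Pairs of the 10 genes were correlated in both directions. Over the 45 pairs of genes the median Pearson r of log2 scaled TPM across the 17 libraries was 0.04, and 26 pairs were positive. Slc1a2 and Slc1a3 had the highest r at 0.69, followed by Slc1a3 and Sox9 at 0.63 and Aqp4 and S100b at 0.60. Slc1a3 and Kcnj10 had the lowest at -0.72, and Slc1a2 and Aldh1l1 were at -0.65. These values are descriptions over 17 libraries that share groups, ages and tissue makeup. Genes whose levels followed the mean of the 10 most closely over the same libraries were Zfp36l1 (r 0.87), Agtrap (0.81), Hspb8 (0.81), Crebl2 (0.78), Gm47988 (0.77), Zfp608 (0.76), Elf1 (0.76) and Plce1 (0.75). They were picked as the highest r among all other tested genes, so their r is high by selection. Shared regulation was not tested.

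The reactive astrocyte genes of the same libraries gave other values at 12 months. Of 15 tested genes of a 20-gene list, 4 were called higher in APP and 0 lower, beside 0.443% of all tested genes called in either direction. In all 14 of the 15 were above 0, as were 8 of the 10 homeostatic genes. The reactive list's median log2 difference was 0.67 beside 0.09 for the 10 homeostatic genes. Gfap, the intermediate filament of astrocytes, was higher by 2.04 (SE 0.30, limma adjusted p 0.00687), at 537 ± 67.2 scaled TPM (SD, n = 3) against 129 ± 5.58 (SD, n = 3). The complement gene C4b was higher by 1.87 (limma adjusted p 0.0122), the protease inhibitor gene Serpina3n by 1.17 (limma adjusted p 0.0216) and the filament gene Vim by 0.87 (limma adjusted p 0.0305). Lcn2, Timp1, Cxcl10, Steap4 and Ptx3 were below the filter. Without APP replicate 1 of 12 months none of the 4 kept its call, with Gfap at a limma adjusted p of 0.0504 and the others at 0.0872 to 0.138. C4b was also lost without APP replicate 3 or WT replicate 1 or 3 of 12 months, Serpina3n without APP replicate 3 or WT replicate 2 or 3, and Vim without any single library of that age. Vim was also lost with the replicate number as a block (limma adjusted p 0.0551) and with no filter on low values (limma adjusted p 0.0522). These lists had been chosen with earlier results of these data known, and their genes are expressed by other cells too. Microglia markers were higher as well, with summed scaled TPM of 362 to 464 in APP and 152 to 173 in WT at 12 months, and 5 of 11 called. That count was 1 without APP replicate 1 of 12 months, 2 without APP replicate 3 or WT replicate 2 or 3, and 3 without WT replicate 1 of that age. The part of microglial RNA in these gene values was not tested.

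**Figure D4:**
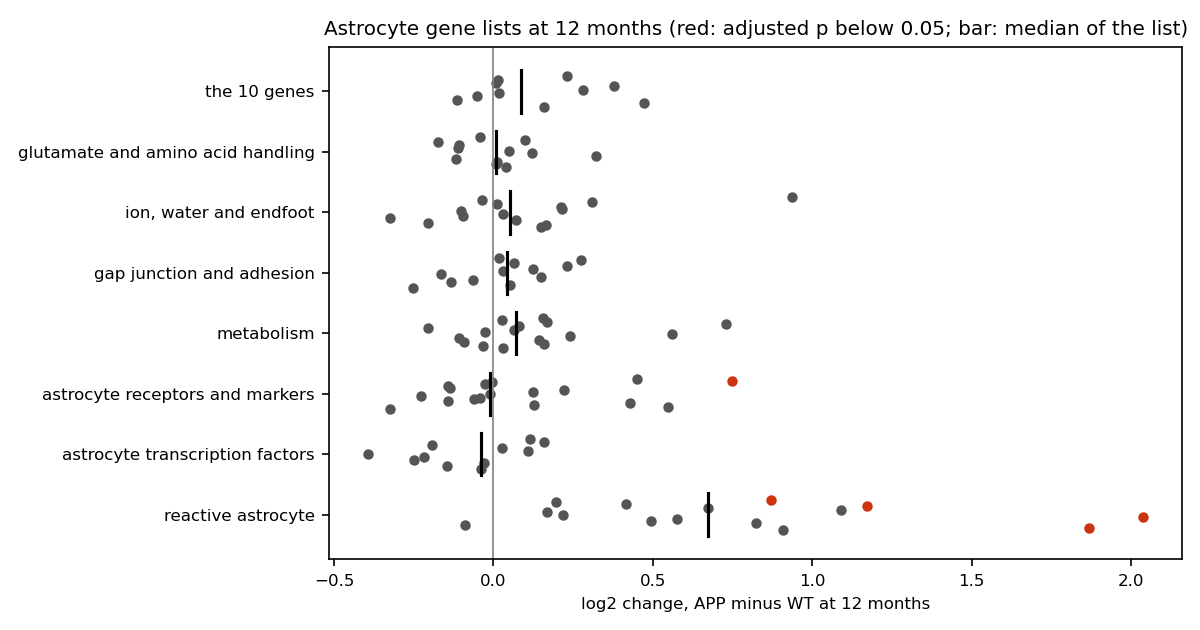
Log2 difference between APP and WT at 12 months (horizontal axis) for the 10 homeostatic genes and 7 further astrocyte lists; each point is a gene, red marks an adjusted p below 0.05 and the black bar is the list's median. The 10 genes lie between -0.11 and 0.47, while 4 reactive astrocyte genes reach 0.87 to 2.04.

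Related astrocyte genes outside the 10 were grouped by role. Between APP and WT at 12 months 0.443% of all tested genes were called. At 12 months, between APP and WT, 0 of 12 tested genes of glutamate and amino acid handling, 0 of 14 of ion, water and endfoot function, 0 of 12 of gap junction and adhesion, 0 of 16 of metabolism and 0 of 11 transcription factors were called. Of 17 receptors and markers 1 was called, the urea transporter gene Slc14a1, with 13.1 ± 1.03 scaled TPM (SD, n = 3) for APP against 7.39 ± 0.93 (SD, n = 3) for WT, a log2 difference of 0.75 (limma adjusted p 0.0190). The Slc14a1 call was lost without APP replicate 1 or 3 or any WT replicate of 12 months, with limma adjusted p of 0.0543 to 0.136, and with its groups fitted alone. Among the uncalled genes the largest differences were 0.94 for the calcium channel gene Trpv4 (limma adjusted p 0.424) and 0.73 for the antioxidant enzyme gene Prdx6 (limma adjusted p 0.184). At 3 months Gpc4, which encodes an astrocyte-secreted glypican that promotes synapses, was called and was at -1.16 in APP (limma adjusted p 0.0417), beside 0.303% of all tested genes called. Of the 17 fits that left out 1 library this call was kept in 3, those without APP replicate 3 of 3 months, APP replicate 1 of 6 months or WT replicate 1 of 12 months. It was also lost with no filter, with array weights, with protein-coding scaling and with its groups fitted alone. At 6 months none of the 6 role lists had a called gene, beside 1.66% of all tested genes called.

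From 3 to 12 months in APP mice, the wider role lists moved in both directions. In this comparison 3.28% of all tested genes were called. Among glutamate and amino acid genes 3 of 12 were called, the glycine cleavage gene Gldc higher by 0.73 (limma adjusted p 0.0398), the glycine transporter gene Slc6a9 at -0.84 (limma adjusted p 0.0234) and the glutamate receptor gene Grm3 at -0.54 (limma adjusted p 0.0297). Gpc4 was higher by 1.05 (limma adjusted p 0.00778), Slc14a1 by 0.93 (limma adjusted p 0.00240) and Prdx6 by 0.76 (limma adjusted p 0.0467). Of the 11 other astrocyte transcription factors 1 was called, Rorb at -0.96 (limma adjusted p 0.0196), so Sox9 was the only factor called higher here. The log2 changes of Zbtb20, at 0.73 (limma adjusted p 0.0598), and Emx2, at 0.63 (limma adjusted p 0.111), were at or above that of Sox9 and were not called. In the same comparison 6 of 8 oligodendrocyte markers were called lower, with a list median of -0.82, and the summed level of that list was 1650 to 2790 scaled TPM at 3 months and 1187 to 1316 at 12 months. The count was 0 with the groups of the comparison fitted alone, 4 on TPM as deposited, 2 without APP replicate 1 of 3 months or APP replicate 1 or 2 of 12 months, and 0 without APP replicate 3 of 12 months. Of 15 tested reactive astrocyte genes 7 were called higher here and 0 lower, and of 11 microglia markers 7 and 0. The reactive astrocyte sum was 135 to 193 scaled TPM at 3 months and 656 to 804 at 12 months. That of microglia was 135 to 147 and 362 to 464. With the groups of the comparison fitted alone 4 and 6 were called, and without APP replicate 1 of 12 months 4 and 5. The part of these shifts and of the oligodendrocyte shift in the Sox9 value was not tested. Of the calls in the role lists Gpc4 and Slc14a1 held in all 17 fits that left out 1 library. Slc6a9 held in 13 (not without APP replicate 1 or 2 of 3 months or 2 or 3 of 12 months). Grm3 and Rorb each held in 12, Grm3 not without APP replicate 2 or 3 of 3 months, Rorb not without APP replicate 1 or 2 of 3 months, and neither without any APP library of 12 months. Gldc held in 5, those without APP replicate 3 of 3 months, a WT library of 3 months or WT replicate 2 or 3 of 6 months. Prdx6 held in 2, those without APP replicate 2 of 6 months or APP replicate 1 of 12 months. With the groups of the comparison fitted alone all of these role-list calls but Slc14a1 were lost. On TPM as deposited Gldc, Slc6a9, Grm3, Rorb and Prdx6 were lost.

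HT-22 cells, treated with amyloid beta 1-42 or a reverse-sequence peptide after a scramble LNA or an LNA against Hsf1, were used to see which of the 10 genes a neuronal line lists at all. Over their 14 libraries, on deposited TPM, Aqp4 and Gjb6 were listed at 0 in 14 and Kcnj10 in 13. Slc1a2 reached at most 0.324 TPM and Aldh1l1 at most 0.144 TPM. S100b was at 0.543 to 1.57 TPM and Glul at 5.39 to 15.9 TPM. Slc1a3 was at 15.1 to 54.1 TPM and Gja1 at 4.14 to 63.5 TPM, both still below every hippocampus library. Sox9 was the exception, at 14.3 to 91.0 TPM in HT-22 and 11.7 to 24.1 TPM in hippocampus, with overlapping ranges. So 9 of the 10 genes were lower in every HT-22 library than in any hippocampus library. The share of all genes that separate in this way was not counted, so the 9 are a description only. TPM depends on the other RNAs of a library, and cells and tissue were not tested against each other.

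**Figure D5:**
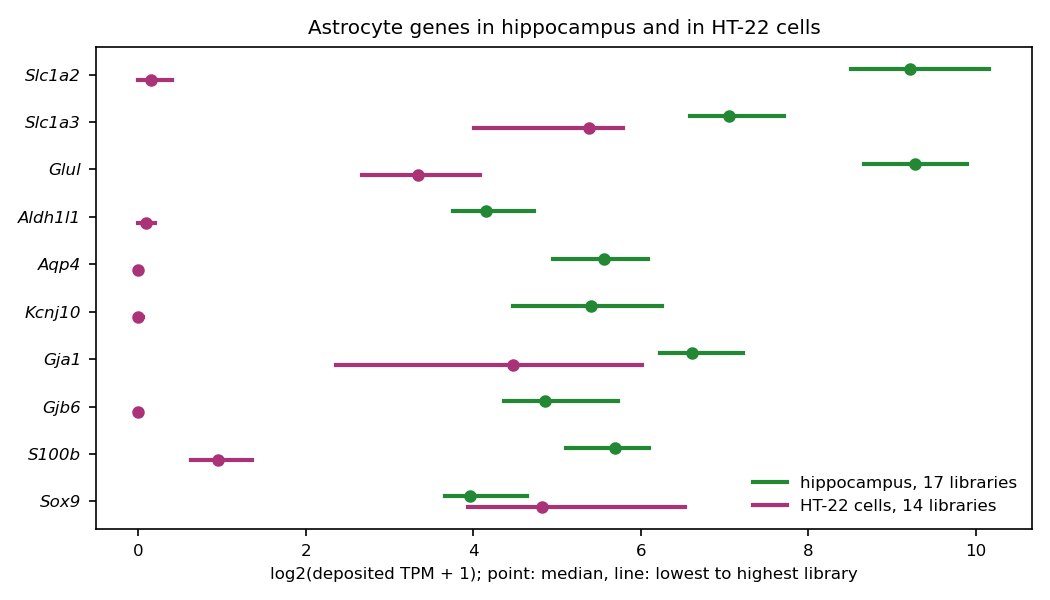
Log2 of deposited TPM + 1 (horizontal axis) of the 10 genes; the point is the median and the line runs from the lowest to the highest of 17 hippocampus or 14 HT-22 libraries. Aqp4 and Gjb6 sit at 0 in HT-22, and Sox9 overlaps between the sources.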

How the data were processed

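Long-RNA libraries of 17 mouse hippocampi were analysed, with 14 HT-22 libraries described only. Per the file headers, each library has its own gene table with TPM, FPKM and Coverage. The authors deposited TPM per gene, which sums to 999823 to 999893 in the mouse libraries. They deposited FPKM as a multiple of TPM, and the deposited coverage signal gives read depth per gene. These units hold no read counts, and count models were not used. HISAT2 2.1.0 and StringTie 1.3.4d, with mm10 and GRCm38, are named in the submitters' processing notes without a role. The ratio of Coverage to FPKM, a relative depth, was taken as its most frequent rounded value over genes above 1 TPM. It was 1.42 to 3.04 in the mouse libraries, where 29.5% to 37.4% of those genes had that value. Depth limits low genes most.

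TPM was summed per gene identifier and divided by a median-of-ratios factor. limma 3.58.1 (R 4.3.3; trend, robust) was fitted to log2(scaled TPM + 1) of 17840 genes with a mean of at least 1 TPM, all 6 groups in 1 fit, and p-values were Benjamini-Hochberg adjusted over all tested genes. It was tested on simulated data with independent noise for each gene and added log2 changes larger than any of the 10 genes showed on scaled TPM. That test does not say how often changes of the size seen here would be found. The 3 gene ratios were tested by exact permutation within ages. Named genes were the 10, every called gene of the wider role lists (at most 6 a list) or else those with the largest change, at most 4 genes of other lists, and the 8 genes most alike; among uncalled genes only some are printed. Members and lists were chosen with earlier results of these data known. The comparisons of WT at 12 and 3 months, of the age changes, and of the genotype difference at 6 and 3 months, and the scaling to protein-coding genes, were chosen after seeing the data. The short-RNA tables were not used here.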

Additional observations from a re-analysis of the deposited data

Results flagged for a closer look

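Aldh1l1 stood on opposite sides in APP and WT at different ages, with every library of one group above or below the other. Its log2 difference between APP and WT was 0.51 at 3 months, -0.28 at 6 months and 0.16 at 12 months, where it was 0.04 without APP replicate 3 of that age. The change of that difference from 3 to 6 months was -0.80 (limma adjusted p 0.0412), and from 6 to 12 months it was 0.44 (limma adjusted p 0.390). The call at -0.80 was kept in 5 of the 17 fits that left out 1 library. It was lost on TPM as deposited, with array weights, with no filter, with protein-coding scaling and with its groups fitted alone. Slc1a2 also stood on opposite sides, at -0.32 at 3 months and 0.31 at 6 months, and the change of 0.63 was not called (limma adjusted p 0.111). Without APP replicate 1 of 3 months the Slc1a2 difference at that age was -0.15 (limma adjusted p 0.781). Among all tested genes, 13.8% were higher and 13.4% lower in APP without overlap at 3 months, and 11.1% and 10.1% at 6 months. The share that changed sides between these ages was not counted.

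Outside the 10 genes, the genotype difference changed from 3 to 6 months for Gpc4 by 1.66 (limma adjusted p 0.0163), for Emx2, an astrocyte transcription factor gene, by 1.27 (limma adjusted p 0.0480) and for Mertk, a phagocytic receptor gene, by 0.99 (limma adjusted p 0.0344). They were 2 of 12 tested gap junction and adhesion genes and 1 of 11 transcription factors, beside 1.61% of all tested genes. The other astrocyte lists had no call there. In that comparison 2 of 5 blood genes were called lower, with a list median of -1.73, and their part in these values was not tested. Without WT replicate 1 of 3 months Gpc4 lost its call, at 0.0649. Of the 17 fits that left out 1 library Emx2 was called in 3, those without an APP library of 3 months. Mertk was called in 7, those without APP replicate 2 or 3 of 3 months, APP replicate 1 or WT replicate 2 of 6 months, or a WT library of 12 months. Emx2 and Mertk were also lost with no filter on low values and with their groups fitted alone, and Emx2 with array weights and with the pseudocount of 0.1. Serpina3n changed with age more in APP than in WT, by 2.06 (limma adjusted p 0.0190), and lost its call in 6 of 17 such fits, those without APP replicate 1 or 3 of 12 months, a WT library of 3 months, or WT replicate 2 or 3 of 12 months. Serpina3n was 1 of 15 tested reactive astrocyte genes called in that comparison of age changes, beside 0.0729% of all tested genes. Genotype and sex-linked expression cannot be told apart at 6 and 12 months, so these differences share that limit. Groups of 2 or 3 libraries were too small to look for single outlying libraries by Dixon's criterion.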

How the results depend on the processing

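An uncalled change whose 95% interval held 0 was given no direction unless a setting called it. On TPM as deposited, 9 of the 10 genes were called at 6 months, 0 in APP at 12 against 3 months and 8 in the 6-month minus 3-month difference. There Aldh1l1 (0.39), Gja1 (0.58) and Sox9 (0.52) had the opposite sign at 6 months, and Aldh1l1 (0.062), Aqp4 (0.65) and Sox9 (0.74) had the opposite sign in that difference. Deposited TPM moved the median of all genes at 6 months by 0.60 on the log2 scale, and the median in the 6-month minus 3-month difference was 0.74. Of all 17840 tested genes, deposited TPM called 10339 at 6 months, 286 in APP at 12 against 3 months and 7932 in that difference. Quantile normalisation gave 2 calls at 6 months (Glul, Slc1a2), 2 in APP at 12 against 3 months (Slc1a3, Sox9) and 2 in the 6-month minus 3-month difference (Aldh1l1, Slc1a2). The matching calls over all 17840 tested genes were 350, 521 and 456. Array weights gave 1 call at 12 months (Aqp4), 2 in APP at 12 against 3 months (Slc1a3, Sox9) and 0 in the 6-month minus 3-month difference, which was also 0 with no filter, with protein-coding scaling and with its groups fitted alone. With array weights 151, 731 and 182 of all 17840 tested genes were called in these comparisons. Leaving out 1 library gave 0 to 2 calls at 3 months, 0 to 1 at 12 months, 1 to 3 in APP at 12 against 3 months and 0 to 1 in the 6-month minus 3-month difference. With the replicate block Sox9 stayed the only call in APP at 12 against 3 months, 1 gene (limma adjusted p 0.0109), and no count of called members changed. Outside the 10, the block ended the calls of Vim at 12 months (limma adjusted p 0.0551) and of Gldc in APP at 12 against 3 months (limma adjusted p 0.0563). With no filter on low values Vim, Gldc, Grm3, Prdx6 and the 3-month Gpc4 call were lost, and with quantile normalisation Prdx6. No pairing by replicate number was seen. Same-numbered pairs had a median r of -0.01 and 3 of 40 were over 0.1, beside 8 of 80 other pairs. In all, 4 of 17 libraries correlated best with their own number. The labels do not say what a number shares, and these correlations cannot exclude a shared step. No ratio changed its call. Over all genes, leaving out 1 library moved the calls between 7 and 376 at 3 months, 66 and 515 at 6 months, 17 and 102 at 12 months, and 160 and 756 in APP at 12 against 3 months; the cause was not tested.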
